A study of Mus musculus with 20 samples.

Results

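Interferon response genes were followed in mouse pre-B cells in which RAG-made DNA breaks were prevented, allowed to be repaired, or left unrepaired. The list held 35 gene symbols of interferon-stimulated genes. Every probe set annotated to exactly 1 of these symbols was taken, which gave 55 of the 44200 probe sets on the array and covered 33 of the 35 genes. Isg15 was represented only by a probe set that also names another gene, and Ifi44 by none in the annotation used here, so neither was measured.

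The 5 groups of cell lines were pre-B cells carrying the v-abl oncogene. All were treated for 48 hours with STI571 (imatinib, 3 uM), an inhibitor of the v-abl kinase. RAG-2-deficient lines (n = 3), which cannot cut their DNA at antigen receptor genes, were the control. The titles of these 3 samples contain the letters Bcl, which the labels do not explain. Wild type lines (n = 3) both cut and rejoin their DNA. Artemis-deficient lines (n = 3) cut it but have no Artemis, the enzyme that opens hairpin DNA ends. The title of the third wild type sample contains the letters ATM, although its source reads wild type; the sample stayed in that group. The Artemis- and ATM-deficient group (n = 2 lines, each on 2 arrays that were averaged) also lacks the kinase that signals breaks. The last group of lines (n = 3, called IkB-DN here) was Artemis-deficient and expressed a dominant negative form of IkB that holds NF-kB inactive. The bone marrow groups were pre-B cells with an immunoglobulin heavy chain (IgH) transgene from Artemis-deficient mice (n = 2) or RAG-1-deficient mice (n = 2, the control), taken without culture in the drug. Replicate numbers only name samples. The labels do not say that all line samples were separate cultures, so p-values measure the spread between these samples, part of which may be technical.

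Type I interferons bind a receptor made of IFNAR1 and IFNAR2 and activate a complex with STAT2 and IRF9, which binds a DNA element called the interferon-stimulated response element (ISRE). Interferon gamma acts mainly at other elements, the gamma-activated sites (GAS). The genes induced in this way restrict viral replication, sense foreign nucleic acid, or carry the signal further. NF-kB and the interferon regulatory factors (IRF) also drive part of the programme, and DNA damage in some cells is known to start it.

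The promoters of 27 of the 35 genes were in the RefSeq table (build GRCm38.p6), which spans 250 bases before to 50 bases after each transcription start. The ISRE core was searched as GAAANNGAAA on both strands with overlapping matches kept, and it was found in the promoters of 15 of these 27 genes (55.6%) against 3.99% of all genes in the table. The GAS motif TTCNNNGAA, which reads the same on both strands, was found in 9 of 27 (33.3%) against 9.55% of all genes. The 4 promoters printed here belong to genes on which the results below turn: Bst2 and Trim30a, which were called in the bone marrow, Rsad2, which differed between the marrow replicates, and Xaf1, which was called in the lines. The 250 bases before the start are given on the strand of the gene, with each ISRE core match in capitals. They lie at chr8:71537473-71537722 (minus strand) for Bst2, chr7:104465194-104465443 (minus strand) for Trim30a, chr12:26456453-26456702 (minus strand) for Rsad2 and chr11:72301379-72301628 (plus strand) for Xaf1.
Bst2: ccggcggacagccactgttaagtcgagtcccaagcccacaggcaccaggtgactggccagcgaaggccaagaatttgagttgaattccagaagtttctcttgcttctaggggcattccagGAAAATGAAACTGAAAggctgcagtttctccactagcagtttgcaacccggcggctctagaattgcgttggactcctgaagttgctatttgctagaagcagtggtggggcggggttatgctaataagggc
Trim30a: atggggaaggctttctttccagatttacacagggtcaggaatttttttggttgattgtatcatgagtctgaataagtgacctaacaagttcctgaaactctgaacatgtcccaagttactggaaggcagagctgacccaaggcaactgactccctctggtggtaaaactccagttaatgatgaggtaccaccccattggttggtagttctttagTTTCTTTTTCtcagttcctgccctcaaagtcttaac
Rsad2: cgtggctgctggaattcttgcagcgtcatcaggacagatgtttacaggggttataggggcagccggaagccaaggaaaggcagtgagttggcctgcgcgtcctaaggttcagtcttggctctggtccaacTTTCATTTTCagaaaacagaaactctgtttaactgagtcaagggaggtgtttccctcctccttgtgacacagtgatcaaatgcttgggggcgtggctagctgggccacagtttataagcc
Xaf1: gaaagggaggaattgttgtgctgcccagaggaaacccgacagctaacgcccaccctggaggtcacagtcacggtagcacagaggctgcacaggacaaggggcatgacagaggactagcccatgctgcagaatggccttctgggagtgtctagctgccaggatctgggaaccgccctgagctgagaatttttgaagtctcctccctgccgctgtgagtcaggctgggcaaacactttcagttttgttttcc
Bst2 held 2 overlapping matches that begin 130 and 124 bases before the start. Trim30a held 1 match, 36 bases before the start, and Rsad2 held 1, 120 bases before it, both on the opposite strand. The Xaf1 window held none of these letters. These matches describe the sequence and are not shown to be bound.

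Levels are log2 of the signal plus a pseudocount of 6 in the lines and 11 in the marrow, so changes of dim probe sets are understated. Lines and marrow were each compared among themselves. The number of arrays limits the precision. Replicates correlated over the kept probe sets at 0.902 to 0.947 in the wild type, RAG-2-deficient, Artemis-deficient and Artemis- and ATM-deficient lines, and at 0.976 to 0.983 in the IkB-DN group, against 0.982 and 0.984 for the technical array pairs. The IkB-DN samples thus correlated like technical arrays, and the labels do not say whether they are separate lines. Calls that involve this group may therefore rest on too small a spread. All 7 B lineage markers with a probe set lay above their array median in 14 of 14 lines. Summed signals of 9 neutrophil and monocyte markers were 649 to 789 in the IkB-DN samples and 903 in Artemis- and ATM-deficient replicate 1. The other line samples had 126 to 411. The Atm probe set 1421205_at read 5.44 and 5.48 in the Artemis- and ATM-deficient lines, against 7.62, 7.63 and 7.65 in RAG-2-deficient lines. The Rag2 probe set read 4.69, 8.03 and 8.38 in RAG-2-deficient lines and 8.28, 7.48 and 7.86 in wild type lines. Only the first of the RAG-2-deficient samples was thus low. Artemis- and ATM-deficient replicate 2 was also low, with 5.99 for Rag2 and 9 for Rag1, against 7.49 and 10.82 in replicate 1. In the marrow, Rag1 read 12.39 and 12.71 in RAG-1-deficient and 10.82 and 10.28 in Artemis-deficient cells. The sources used here do not say whether these probe sets lie in the deleted parts, so their levels do not check the labels.

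In the lines, much of the interferon response was too dim to test. Of the 55 probe sets, 32 (17 genes) passed the filter of at least 2 samples at their array median, a share of 58.2% against 49.6% of all probe sets. The other 23 lay between 2.59 and 5.37 where they had a value, and 90 of their 322 cells were empty. In 21 of the 23, no line sample reached its array median, and Oas2 and Rtp4 1418580_at reached it in 1 sample each. The 16 genes without a usable probe set in the lines included most classical effectors: Mx1 and Mx2, the oligoadenylate synthetase family (Oas1a, Oas2, Oas3, Oasl1, Oasl2), Ifit1 and Ifit3, which bind viral RNA, Rsad2 (viperin) and Bst2 (tetherin). Mx2 had an empty cell in 13 of 14 samples. The RNA sensors Ifih1 and Dhx58 and the ISG15 protease Usp18 were also below the filter. In the marrow, 48 probe sets (32 genes) passed the filter, a share of 87.3% against 44.2% of all probe sets, including 18 that did not pass in the lines.

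Among the 32 probe sets tested in the lines, few changed in any comparison. A change was called at a Benjamini-Hochberg adjusted p below 0.05 in limma, with the adjustment over all probe sets tested. Between Artemis-deficient and RAG-2-deficient lines, 1 was higher and 1 lower, and both belong to Xaf1. Over all probe sets, 1.14% were called there, 0.685% higher and 0.455% lower. The median difference was -0.10, against -0.01 over all probe sets. The groups did not overlap for 5 probe sets that were higher (8.88% of all probe sets) and 4 that were lower (9.55%). Wild type lines differed from the RAG-2-deficient lines in 0 probe sets by limma, against 0.824% of all, with 6 at an unadjusted p below 0.05 (12.5% of all) and a median of -0.25 against 0.00. The Artemis- and ATM-deficient lines had 1 higher (0.304% of all called higher, 0.673% in either direction). The IkB-DN lines had 2 higher and 1 lower, where 10% of all probe sets were called, 5.08% higher and 4.95% lower, so this share was close to the background. These 4 comparisons share the same 3 control samples.

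Comparisons among the lines that can cut also gave few calls. Artemis-deficient lines had 1 probe set higher than wild type lines (0.312% of all called higher, 0.509% in either direction) and 1 lower than the IkB-DN lines (1.05% of all called lower, 2.08% in either direction). Against the Artemis- and ATM-deficient lines, limma called 0 probe sets (0.247% of all), with 3 at an unadjusted p below 0.05 (9.63% of all). The Artemis- and ATM-deficient lines against the IkB-DN lines also gave 0 (6.55% of all), with 4 at an unadjusted p below 0.05 (23.1% of all). Medians over the 32 probe sets lay between -0.15 and 0.08 in these 4 comparisons.

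**Figure D1:**
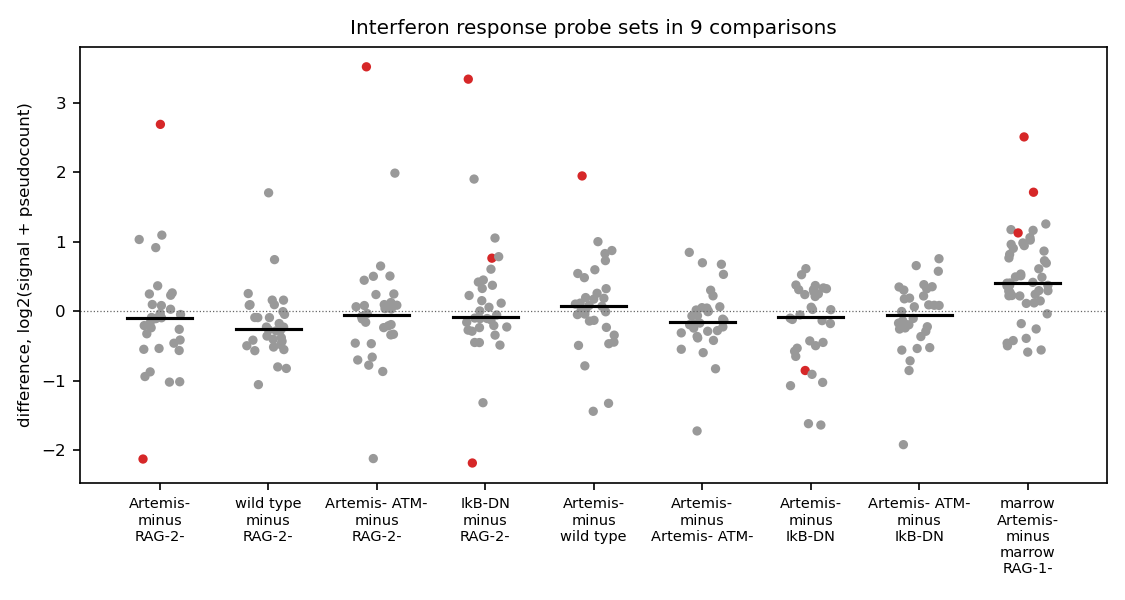
Each point is the log2 difference of 1 interferon response probe set (y axis) in 1 of 9 comparisons (x axis, first group minus second), with called probe sets in red and the median as a black line; horizontal jitter has no meaning. In the 8 line comparisons the medians lie between -0.25 and 0.08, while the median in the marrow is 0.40, with 39 of 48 points above 0.

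Xaf1, whose product binds the apoptosis inhibitor XIAP, was called in 4 of the 8 line comparisons, and its 2 probe sets moved in opposite directions. Probe set 1443621_at read 4.39, 4.50 and 4.28 in RAG-2-deficient samples, against 6.81, 7.49 and 6.92 in Artemis-deficient ones. Wild type samples read 6.13, 4.79 and 4.48, Artemis- and ATM-deficient samples 7.92 and 7.89, and IkB-DN samples 8.16, 7.69 and 7.34. All 8 samples that lack Artemis lay above all 6 that have it. No RAG-2-deficient sample reached its array median (5.04 to 5.06), so this probe set passed the filter mainly through the groups where it is high. The difference from the RAG-2-deficient lines was 2.69 ± 0.36 (SE) in the Artemis-deficient lines (limma adjusted p = 0.00356), 3.51 ± 0.40 in the Artemis- and ATM-deficient lines (adjusted p = 0.00175) and 3.34 ± 0.36 in the IkB-DN lines (adjusted p = 0.000496). Each of these 3 calls held when any single sample of its compared groups was left out. Artemis-deficient lines also exceeded wild type lines, by 1.95 ± 0.36 (adjusted p = 0.0378). That call was lost without Artemis-deficient replicate 1, 2 or 3 (adjusted p = 0.0550, 0.110 and 0.0674) or without wild type replicate 2 or 3 (0.0867 and 0.0678), with differences of 1.62 to 2.08.

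The second Xaf1 probe set, 1443698_at, ran the other way. RAG-2-deficient samples read 7.31, 7.53 and 6.88, wild type samples 6.01, 6.73 and 6.57, and Artemis-deficient samples 6.28, 4.69 and 4.36. Artemis- and ATM-deficient samples read 5.28 and 4.95, and IkB-DN samples 5.17, 5.53 and 4.46. The RAG-2-deficient lines were highest, and the lines lacking Artemis lay below them without overlap. Relative to the RAG-2-deficient lines it fell by 2.13 ± 0.44 in the Artemis-deficient lines (limma adjusted p = 0.0406) and by 2.18 ± 0.44 in the IkB-DN lines (adjusted p = 0.0102). The first call was lost without Artemis-deficient replicate 2 or 3 (limma adjusted p = 0.126 and 0.0960). It was also lost without RAG-2-deficient replicate 1, 2 or 3 (limma adjusted p = 0.138, 0.109 and 0.0701). The second call held when any 1 IkB-DN or RAG-2-deficient sample was left out. In the Artemis- and ATM-deficient lines the difference was -2.12, with an adjusted p of 0.0826. The 2 probe sets had a correlation of -0.86 over the 14 line samples, which share their groups, whereas every other gene with several tested probe sets had correlations from 0.49 to 0.98. A direction for the Xaf1 transcript as a whole is therefore not given.

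**Figure D2:**
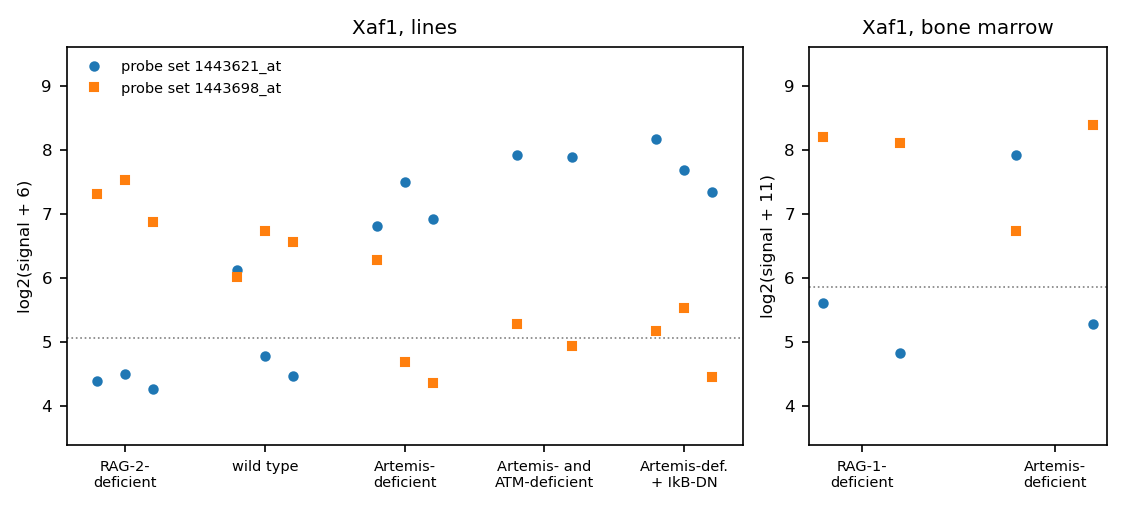
Levels of the 2 Xaf1 probe sets (y axis, log2 of signal plus pseudocount) in each line sample (left) and each bone marrow sample (right), by group; the dotted line is the array median of the set. Samples of lines lacking Artemis have higher 1443621_at and lower 1443698_at than RAG-2-deficient samples, and in the marrow Artemis-deficient replicate 1 stands apart from the other 3 samples, with 7.91 and 6.74.

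Among the effectors against viral replication, the kinase Eif2ak2 (PKR), which stops translation when it binds viral RNA, had 1 called probe set. Probe set 1422005_at read 4.95, 5.11 and 4.86 in RAG-2-deficient samples, 4.86, 5.03 and 4.75 in Artemis-deficient samples and 5.80, 5.82 and 5.58 in IkB-DN samples. Wild type samples read 5.09, 5.46 and 5.13, and Artemis- and ATM-deficient samples 5.52 and 5.44. The IkB-DN samples were the 3 highest of the 14, and no Artemis-deficient sample reached its array median (5.04 to 5.07). They lay 0.76 ± 0.17 above the RAG-2-deficient lines (limma adjusted p = 0.0170), and the Artemis-deficient minus IkB-DN difference was -0.85 ± 0.17 (adjusted p = 0.0277). The first call was lost without IkB-DN replicate 1 or 2 or RAG-2-deficient replicate 3 (adjusted p = 0.0647, 0.0742 and 0.0557), and the second without Artemis-deficient replicate 1 or any 1 IkB-DN sample (adjusted p from 0.0660 to 0.128). The other 2 Eif2ak2 probe sets were also lower in the Artemis-deficient than in the IkB-DN lines, by -0.43 and -0.58, without being called (adjusted p = 0.197 and 0.252).

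Ifit2, an RNA-binding protein that limits viral translation, varied widely. RAG-2-deficient samples read 5.74, 5.55 and 3.41, and Artemis-deficient samples 5.03, 6.03 and 4.43. Wild type samples read 6.83, 6.43 and 6.55, Artemis- and ATM-deficient samples 6.35 and 7.42, and IkB-DN samples 7.09, 6.81 and 6.50. The RAG-2-deficient and Artemis-deficient samples lay below all others, but no Ifit2 difference was called. That between IkB-DN and RAG-2-deficient lines was 1.90 ± 0.56 (limma adjusted p = 0.0509). Of the runs leaving out 1 sample, only that without RAG-2-deficient replicate 1 called it (2.32, adjusted p = 0.0424). It was not called without RAG-2-deficient replicate 3, which read 3.41. Cmpk2, a mitochondrial nucleotide kinase, read 6.25, 5.67 and 5.84 in IkB-DN samples against 4.31, 4.37 and 4.21 in Artemis-deficient ones. RAG-2-deficient samples read 5.75, 4.31 and 4.53, wild type samples 3.83, 5.19 and 3.11, and Artemis- and ATM-deficient samples 3.78 and 4.21. The Artemis-deficient and IkB-DN groups did not overlap (14.6% of all probe sets in this direction), and their difference of -1.62 ± 0.49 was not called (adjusted p = 0.105). The 3 probe sets of Adar, which edits adenosine in RNA, were not called in any comparison.

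Samhd1, which degrades the nucleotides that reverse transcription needs, had the highest within-group spread among the members tested in the lines. Its probe set 1418131_at read 7.37, 9.57 and 7.85 in wild type samples, 9.21, 7.52 and 9.19 in RAG-2-deficient samples and 7.35, 6.75 and 9.20 in Artemis-deficient samples. The 3 IkB-DN samples read 8.87, 8.77 and 8.74, and the Artemis- and ATM-deficient samples 8.55 and 7.33. Both high and low samples therefore occurred in each of the other 4 groups. The within-group standard deviation was 0.98, at the 95.7 percentile of all probe sets kept. All 5 Samhd1 probe sets shared the pattern, with pairwise correlations from 0.84 to 0.96 over the 14 samples.

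The transcription factors of the pathway were expressed in the lines, and none was called. Irf1, which NF-kB and interferon gamma induce, read 9.32, 9.07 and 9.32 in Artemis-deficient samples against 8.99, 8.96 and 8.66 in RAG-2-deficient ones. Wild type samples read 8.58, 9.10 and 8.40, Artemis- and ATM-deficient samples 8.84 and 8.24, and IkB-DN samples 8.99, 8.56 and 8.58. The Artemis-deficient samples lay above every sample of the other groups except wild type replicate 2. Differences from the Artemis- and ATM-deficient lines (0.70 ± 0.23, limma adjusted p = 0.319) and from the IkB-DN lines (0.52 ± 0.21, adjusted p = 0.198) were not called.

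Irf7, which amplifies type I interferon production, was near the array median: wild type samples read 4.46, 5.44 and 4.16, RAG-2-deficient samples 5.62, 5.47 and 4.23, and Artemis-deficient samples 4.42, 4.56 and 4.70. Artemis- and ATM-deficient samples read 5.22 and 4.52, and IkB-DN samples 5.28, 4.90 and 4.84. All groups overlapped in Irf7 except the Artemis-deficient and IkB-DN samples. Irf9, the DNA-binding partner of the STAT complex, read 7.23, 7.37 and 7.38 in wild type samples, 7.85, 7.93 and 7.49 in RAG-2-deficient samples and 7.68, 7.47 and 7.81 in Artemis-deficient samples. Artemis- and ATM-deficient samples read 7.74 and 7.46, and IkB-DN samples 7.82, 7.75 and 7.54. The wild type samples were the lowest in Irf9, and their difference from the RAG-2-deficient lines was -0.43 ± 0.15 (limma adjusted p = 0.247). Stat2 (1450403_at) read 6.44, 6.92 and 6.45 in wild type samples, 6.94, 6.90 and 7.05 in RAG-2-deficient samples and 6.73, 6.33 and 7.32 in Artemis-deficient samples. Artemis- and ATM-deficient samples read 7.09 and 6.63, and IkB-DN samples 6.59, 6.38 and 6.57. The Artemis-deficient samples overlapped every other group at this probe set, and the second one, 1421911_at, spanned 5.56 to 6.40 over all samples.

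The GTPases that interferon gamma mainly induces were not called in any line comparison. Gbp2 and Gbp3 separated Artemis-deficient from RAG-2-deficient samples, as did 8.88% of all probe sets in this direction. Gbp3, a guanylate-binding protein of cell-autonomous defence, read 7.58, 7.40 and 8.01 in Artemis-deficient samples against 6.27, 6.89 and 6.73 in RAG-2-deficient ones. Wild type samples read 6.56, 7.05 and 6.76, Artemis- and ATM-deficient samples 7.29 and 6.97, and IkB-DN samples 6.56, 7.05 and 7.55. The Artemis-deficient samples overlapped only the IkB-DN group. The difference from the RAG-2-deficient lines was 1.03 ± 0.26 (limma adjusted p = 0.0875) and from the wild type lines 0.87 ± 0.26 (adjusted p = 0.173). Gbp2 (1418240_at) read 7.19, 7.12 and 7.31 in the Artemis-deficient lines against 5.49, 6.61 and 6.78 in the RAG-2-deficient lines. Wild type samples read 6.05, 6.62 and 6.46, IkB-DN samples 6.83, 6.94 and 6.91, and Artemis- and ATM-deficient samples 5.93 and 7.13. The Artemis-deficient samples overlapped only the last of these groups, and the difference from the RAG-2-deficient lines of 0.91 ± 0.34 was not called (adjusted p = 0.252), nor was that of the second Gbp2 probe set (1.09 ± 0.40, adjusted p = 0.252). Probe sets of such close families can share sequence, and this was not checked here. Irgm1 and Igtp, immunity-related GTPases that act on the vacuoles of intracellular parasites, spanned 7.76 to 8.45 and 6.75 to 7.73 over the 14 samples and were not called.

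**Figure D3:**
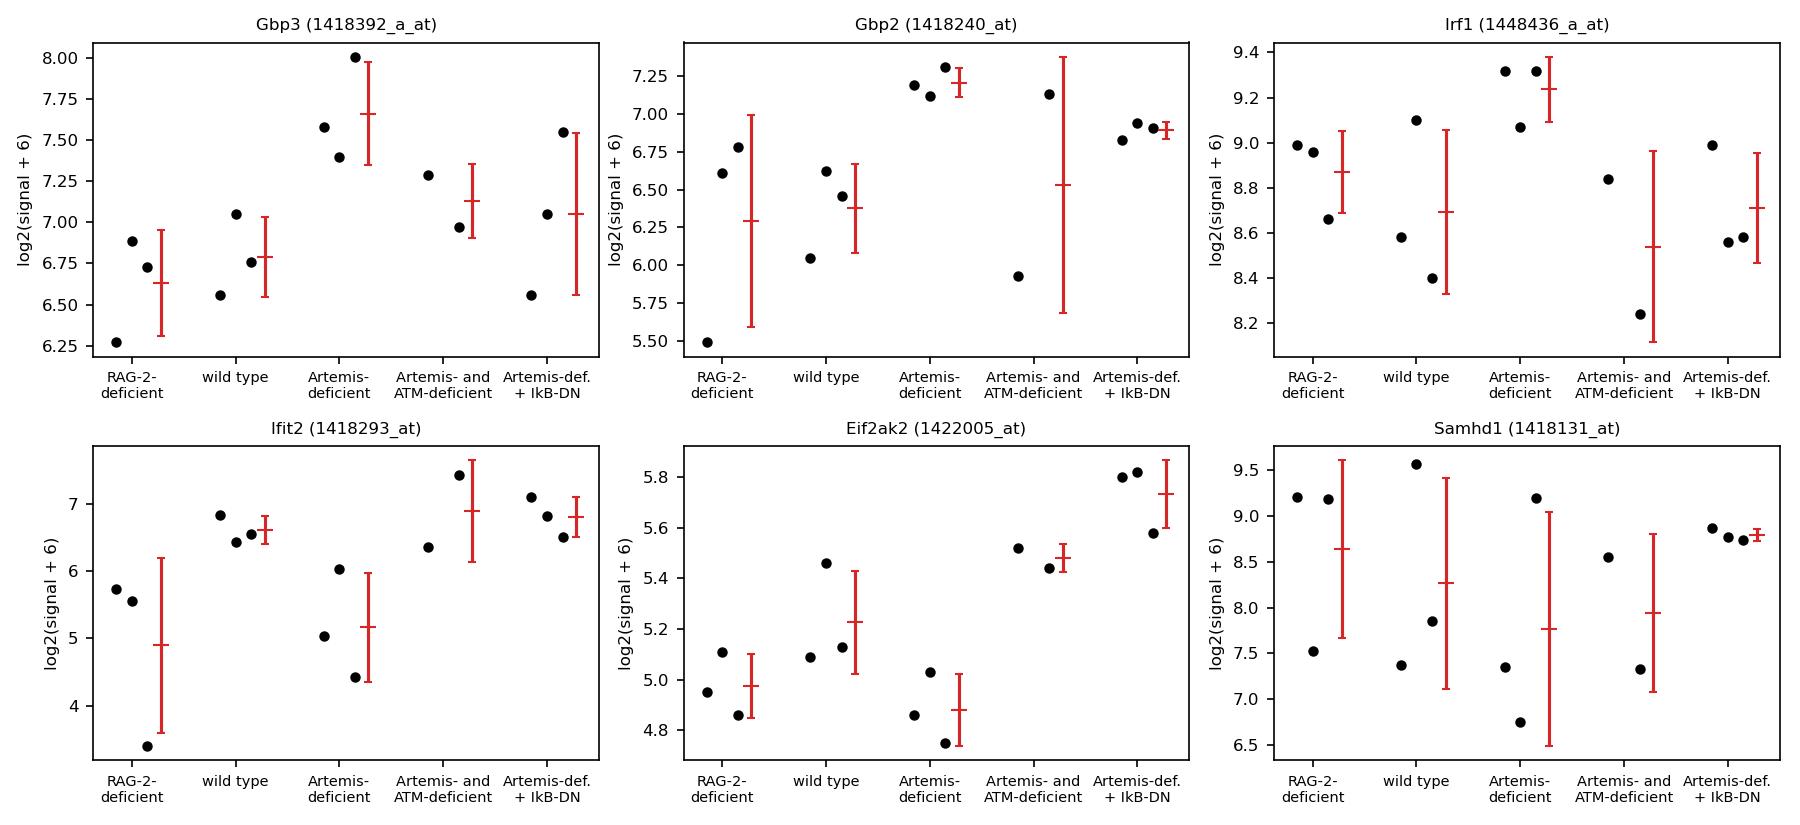
Levels of 6 interferon response probe sets (y axes, log2 of signal plus 6; each axis has its own range and does not start at 0) in the 14 line samples by group; black points are samples, and red marks show the mean and 1 SD. IkB-DN samples are the highest for Eif2ak2, Artemis-deficient samples lie above the RAG-2-deficient ones for Gbp3, Gbp2 and Irf1, and Samhd1 samples of one group lie far apart.

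Trim30a, a TRIM family protein, read 9.84, 9.42 and 9.27 at probe set 1417961_a_at in RAG-2-deficient samples against 8.62, 8.91 and 8.17 in Artemis-deficient ones. IkB-DN samples read 8.33, 8.09 and 8.16, wild type samples 8.83, 9.31 and 7.22, and Artemis- and ATM-deficient samples 9.10 and 8.59. The RAG-2-deficient samples were above all samples of the other groups except wild type replicate 2. Neither the difference of the Artemis-deficient lines (-0.94 ± 0.42, limma adjusted p = 0.342) nor that of the IkB-DN lines (-1.32 ± 0.41, adjusted p = 0.0645) was called. Ifi35 and Parp14, an ADP-ribosyltransferase, had 3 and 2 tested probe sets, and none was called in the lines.

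Other genes of the interferon pathway, from a list of 89, were also tested in the lines. None of the 10 interferon genes was tested: 6 had a probe set and all 6 were below the filter. Between Artemis-deficient and RAG-2-deficient lines, 1 of 61 was called (1.09% of all genes): Shisa5, also known as a p53 target, rose by 2.10 ± 0.30 (limma adjusted p = 0.00613). Wild type against RAG-2-deficient lines had 0 higher and 1 lower of 61 (0.817% of all genes called), and Artemis-deficient against wild type lines 1 higher and 0 lower (0.59%), each time Lgals9 (galectin-9), with differences of -0.74 and 0.82 (adjusted p = 0.0260 and 0.0194). In the IkB-DN against the RAG-2-deficient lines, 3 of 59 were higher and 4 lower (10.6% of all genes called). Ifitm3, a membrane protein that blocks viral entry, rose by 3.27 ± 0.45 (adjusted p = 0.00160), Aim2, a sensor of cytoplasmic DNA, rose by 3.59 ± 0.99 (adjusted p = 0.0437), and Trim34a fell by 4.55 ± 1.22 (adjusted p = 0.0360). Artemis-deficient lines had 1 of 60 called against Artemis- and ATM-deficient lines (0.27% of all genes) and 2 of 59 against IkB-DN lines (2.43%). The Artemis- and ATM-deficient lines had 4 of 58 called against IkB-DN lines (6.95%), and against RAG-2-deficient lines 0 of 60 by limma (0.655%). Of these 60, 7 had an unadjusted p below 0.05, as did 1180 of all 9618 genes.

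In the bone marrow, 3 of 48 interferon response probe sets were called higher in pre-B cells lacking Artemis than in those lacking RAG-1. They belong to Bst2, Mx1 and Trim30a, and 0 of the 48 probe sets was called lower by limma. Over all probe sets, 2.68% were called, 1.89% higher and 0.791% lower. At an unadjusted p below 0.05 there were 16, all higher in the Artemis-deficient cells, against 16.9% of all probe sets in either direction. The difference was above 0 in 39 of 48 (49.4% of all probe sets) and its median was 0.40, against -0.01 over all probe sets. The groups did not overlap for 24 that were higher (23.5% of all) and 1 that was lower (25.4% of all), Cmpk2. In bulk RNA, fewer cells of a type and less RNA per cell cannot be told apart.

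Bst2, or tetherin, which holds budding virus at the cell surface, read 11.64 and 12.06 in the Artemis-deficient samples and 8.70 and 10.00 in the RAG-1-deficient samples. The groups did not overlap, and the RAG-1-deficient samples differed from each other by more than the Artemis-deficient ones. The change was 2.51 ± 0.38 (SE), 5.68-fold on the scale of signal plus 11 (limma adjusted p = 0.0274), and without RAG-1-deficient replicate 1 it was 1.86 (adjusted p = 0.131). Mx1, a dynamin-like GTPase against influenza virus, read 7.27 and 7.39 against 5.69 and 5.54. Both pairs were close, and it rose by 1.71 ± 0.25 (adjusted p = 0.0258). Its RAG-1-deficient levels lay below their array medians (5.85 and 5.86), so Mx1 passed the filter only through the Artemis-deficient samples, as Dhx58 did among the 48. The call was lost without RAG-1-deficient replicate 1 (1.78, adjusted p = 0.192) or 2 (1.64, adjusted p = 0.140). Trim30a (1417961_a_at) read 11.66 and 12.23 against 10.69 and 10.96. It rose by 1.13 ± 0.22, 2.18-fold (adjusted p = 0.0467), and its second probe set differed by 1.06 (adjusted p = 0.0568). This call too was lost without RAG-1-deficient replicate 1 (0.99, adjusted p = 0.314) or 2 (1.26, adjusted p = 0.153).

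None of the 5 transcription factor probe sets was called. Irf1 read 10.31 and 10.46 against 9.13 and 9.72, a difference of 0.96 ± 0.22 (limma adjusted p = 0.0706), and Irf7 read 8.69 and 9.71 against 7.63 and 8.42, a difference of 1.17 ± 0.37 (adjusted p = 0.165). Stat2 (1450403_at) read 7.54 and 7.53 against 6.61 and 6.65, a difference of 0.90 ± 0.22 (adjusted p = 0.0804). The groups did not overlap for these 3 genes, which also held for 23.5% of all probe sets in this direction. Without Artemis-deficient replicate 1, which leaves 1 sample in that group, so that it is assumed to vary like the RAG-1-deficient pair, Irf1 (1.04, adjusted p = 0.0372) and Irf7 (1.68, adjusted p = 0.00709) were called. Irf9 read 8.93 and 9.10 against 8.80 and 9.0, with overlapping groups and a difference of 0.11 ± 0.18.

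The RNA sensors Ifih1 and Dhx58 differed by 0.98 (limma adjusted p = 0.117) and 0.73 (adjusted p = 0.293), and Usp18, which removes ISG15 from proteins, by 1.02 (adjusted p = 0.310). All 7 probe sets of the 5 GTPases induced by interferon gamma were above 0, from 0.27 for Irgm1 to 1.16 for Iigp1 1419043_a_at, and 0 were called. Among the 25 probe sets of antiviral effectors, 17 were above 0, and they ranged from -0.56 for Oas3 to 2.51 for Bst2.

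**Figure D4:**
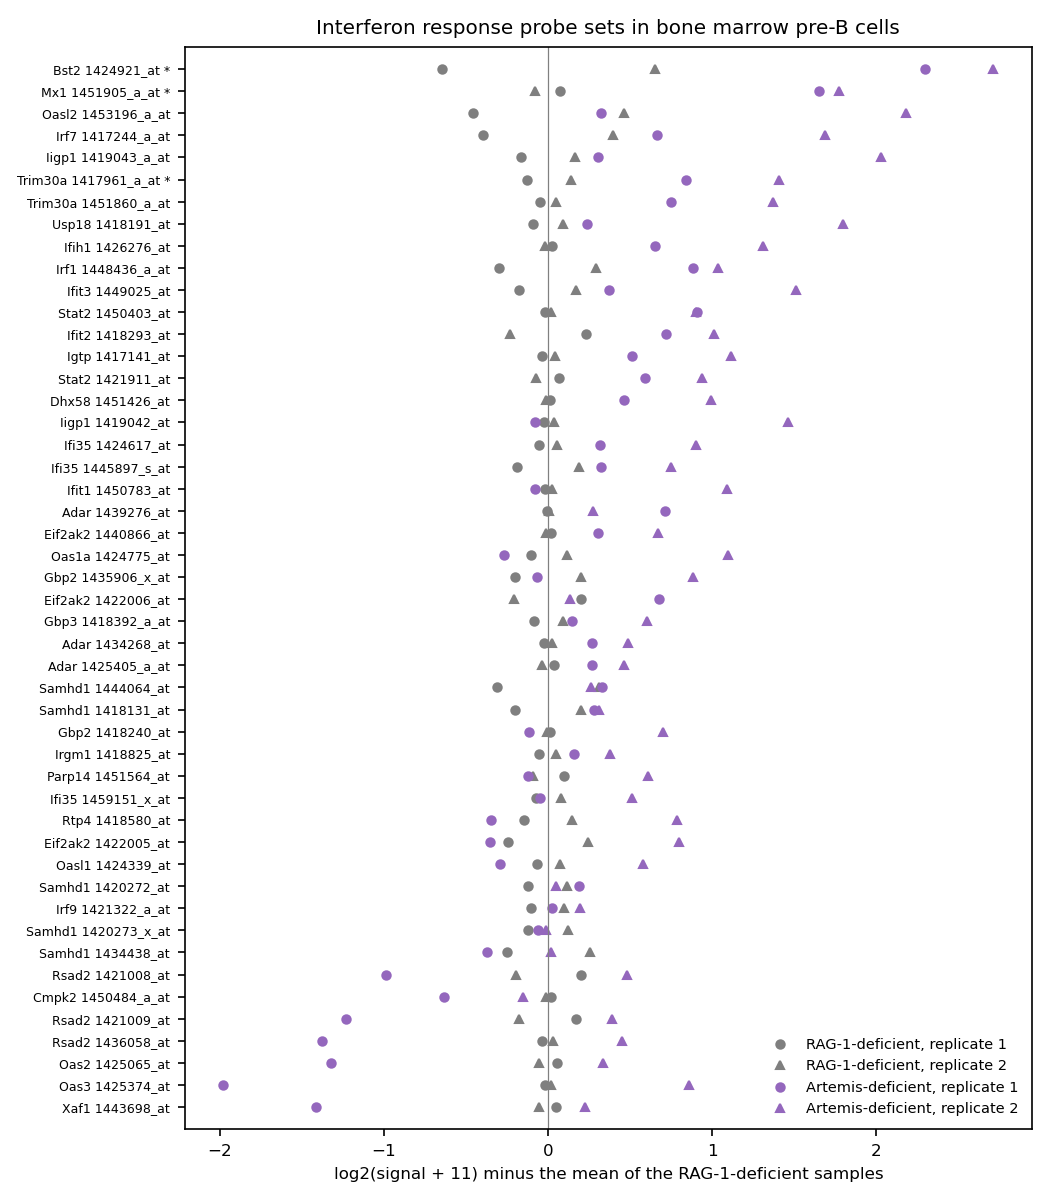
Each row is 1 of the 48 interferon response probe sets tested in the marrow, ordered by the difference between groups; points give the 4 samples as log2 of signal plus 11 minus the mean of the RAG-1-deficient samples (x axis), and a star marks a called probe set. Artemis-deficient replicate 2 lies above 0 in 46 of 48 rows (49.4% of all probe sets) and replicate 1 in 29 (49.2%). Replicate 1 lies far to the left for Oas2, Oas3, Rsad2 and Xaf1.

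The Artemis-deficient marrow samples differed from each other over the interferon response genes. Replicate 2 was above replicate 1 in 43 of 48 probe sets, with a median of 0.58, against 53.6% of all probe sets and a median of 0.03. The RAG-1-deficient samples differed by a median of 0.10, with replicate 2 above in 33 of 48. Against the mean of the RAG-1-deficient samples, the median was 0.25 for Artemis-deficient replicate 1 and 0.77 for replicate 2. Without replicate 1, limma called 15 of 48 probe sets, all higher, and the median moved from 0.404 to 0.769; calls over all probe sets went from 522 to 1314. Without replicate 2 it called 8 (1396 over all probe sets), of which Bst2, Mx1 and Trim30a were higher and 3 Rsad2 probe sets, Oas3 and Xaf1 lower. Both fits rest on a lone Artemis-deficient sample that is assumed to vary like the RAG-1-deficient pair.

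A few genes were low in Artemis-deficient replicate 1 alone. Oas3, which makes the oligoadenylates that activate RNase L, read 4.38 in that sample and 7.22 in replicate 2, against 6.34 and 6.38 in the RAG-1-deficient samples. Oas2 of the same family read 5.06 and 6.72, against 6.44 and 6.33. Rsad2 (1436058_at), a radical SAM enzyme whose product stops viral RNA synthesis, read 8.65 and 10.48, against 9.99 and 10.06. In each, the RAG-1-deficient samples lay close together and between the 2 Artemis-deficient samples, and the limma difference was not called (adjusted p = 0.776, 0.681 and 0.704). Xaf1 followed the same split: 1443698_at read 6.74 and 8.38 against 8.20 and 8.10, while 1443621_at, which did not pass the marrow filter, read 7.91 and 5.29 against 5.61 and 4.84. Replicate 1 thus differed from the other 3 marrow samples in the same directions in which the lines lacking Artemis differed from the RAG-2-deficient lines.

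In the marrow, summed signals of dendritic cell, neutrophil and monocyte, and T and NK cell markers were also higher in the Artemis-deficient samples. Those of erythroid markers were lower. Of 6 plasmacytoid dendritic cell markers, all were tested, 4 were called higher in the Artemis-deficient cells (2.73% of all genes called) and their median difference was 2.50. Plasmacytoid dendritic cells are known as strong producers of type I interferon, and Bst2 itself is also one of their surface antigens in mice. Siglech, a defining marker, read 10.67 and 11.36 in the Artemis-deficient and 7.87 and 9.01 in the RAG-1-deficient samples. None of the 6 was empty in any marrow sample, and their summed signal was 8030 and 13700 against 2290 and 3250. Artemis-deficient replicate 2 was the highest of the 4 samples in this sum. It also lay above the RAG-1-deficient mean in 46 of the 48 interferon response probe sets (49.4% of all probe sets). The same sample was the highest in the sums of other dendritic cell markers (1730) and T and NK cell markers (10100), and the lowest for B lineage markers (8470). It was not the highest in the neutrophil and monocyte sum or the erythroid sum. In the lines, Siglech, Ccr9, Lair1 and Clec10a of this list were below the array median in all 14 samples, while Cox6a2 and Klk1 were above it in all 14; for Ccr9 and Klk1 the brightest probe set, which is the one used, is not the same in lines and marrow.

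Other dendritic cell markers had 3 of 5 tested and 2 called higher, with sums of 1470 and 1730 against 553 and 746. Neutrophil and monocyte markers had 9 of 10 tested and 1 called higher, with sums of 68600 and 64400 against 37500 and 52300. T and NK cell markers had 4 of 7 tested and 0 called by limma, with sums of 9940 and 10100 against 6420 and 8780. Of these 4, 3 had an unadjusted p below 0.05, as did 1759 of all 9917 genes. Cd3e was empty in 3 of 4 samples. Erythroid markers had 2 of 5 tested and 0 called (1 at an unadjusted p below 0.05), with sums of 579 and 644 against 805 and 779. The 7 B lineage markers were all lower in the Artemis-deficient cells, with a median of -1.12 and sums of 12500 and 8470 against 22200 and 25900. The 2 called were Vpreb1 (-1.33) and Rag1 (-2.00), the gene targeted in the control. The part of these cell types in the marrow differences of the interferon response genes was not tested.

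**Figure D5:**
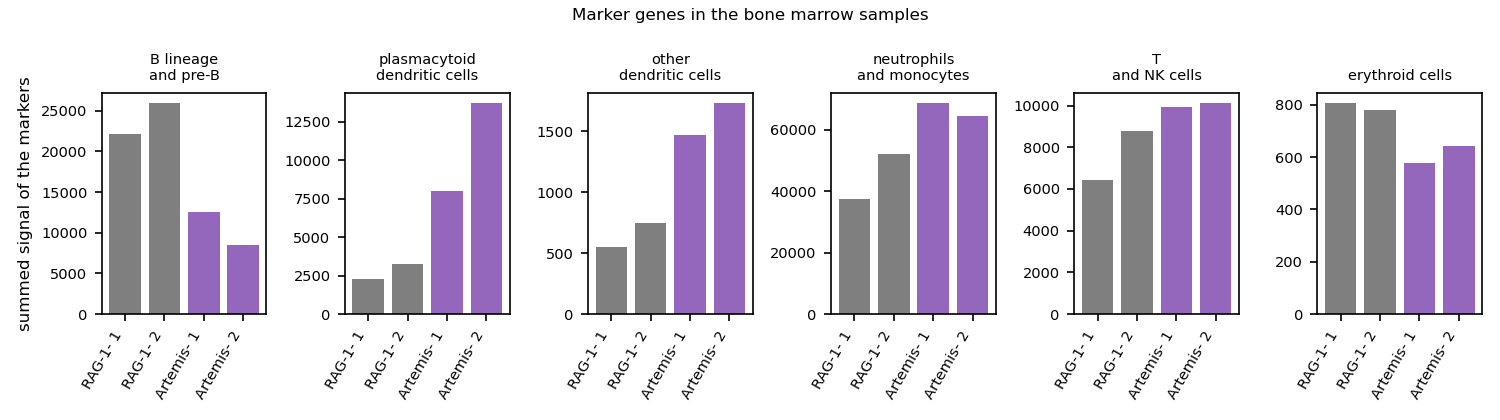
Summed signal of the marker genes of 6 cell types (y axes, linear signal from 0, each with its own range) in the 4 bone marrow samples, with RAG-1-deficient samples in grey and Artemis-deficient samples in purple. The plasmacytoid dendritic cell sum is 8030 and 13700 in the Artemis-deficient samples against 2290 and 3250, and the B lineage sum is 12500 and 8470 against 22200 and 25900.

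Other genes of the interferon pathway were also mostly above 0 in the marrow. Of 68 other genes tested, 4 were called higher and 0 lower by limma, where 190 of all 9917 genes were called higher and 81 lower (2.73% in all). At an unadjusted p below 0.05 there were 28, against 1759 of all genes. The difference was above 0 in 53 (49.8% of all genes), with a median of 0.39 against 0.00. Ifnar2, a chain of the type I interferon receptor, rose by 1.29 ± 0.20 (adjusted p = 0.0280), and the other chain, Ifnar1, differed by 0.80 ± 0.18 (adjusted p = 0.0635). Tlr7, a sensor of single-stranded RNA that plasmacytoid dendritic cells carry, rose by 2.18 ± 0.31 (adjusted p = 0.0246), and Irf8, a transcription factor of dendritic and B cells, by 1.41 ± 0.19 (adjusted p = 0.0246). Lgals3bp, a secreted glycoprotein, rose by 1.01 ± 0.19 (adjusted p = 0.0417). Of the 10 interferon genes, Ifng was the one tested, with a difference of 0.54 ± 0.26 (adjusted p = 0.351).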

How the data were processed

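Transcript levels were measured on 20 Affymetrix mouse genome arrays. Per the labels, GeneChip Operating Software produced the signals. The deposited values are log10 signals; the base was inferred from their range, and the sources used here do not state the summary and scaling methods. Empty cells (14.7%) were left empty. Signals were returned to the linear scale, raised by the 25th percentile of the set (6 in the lines, 11 in the marrow) and taken to log2. Probe sets with at least 2 samples at their array median were kept (21917 in the lines, 19520 in the marrow). The technical arrays of 2 lines were averaged, leaving 14 line samples.

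limma 3.58.1 in R 4.3.3 (lmFit, eBayes with a trend) was fitted over the 5 groups of lines together (9 residual degrees of freedom) and over the marrow groups (2 residual degrees of freedom), with two-sided Benjamini-Hochberg adjusted p over all probe sets tested and a threshold of 0.05. Probe sets needed at least 2 values in each group. The fit was tested on simulated data. Lists outside the 35 genes used 1 probe set per gene. The members and all lists were chosen with earlier results of these data known. All 35 genes could be named. Values in every sample of the set described (lines or marrow) are given for called probe sets, for Irf1, Irf7, Irf9 and Stat2, and for some others chosen after their values were seen (Ifit2, Cmpk2, Samhd1, Gbp2, Gbp3, Oas2, Oas3, Rsad2). From the other pathway genes, up to 8 called ones and Ifnar1 and Ifnar2 were named. Alternatives were other pseudocounts, filters, scaling, treatment of empty cells, groups in the fit, and leaving out each sample of the compared groups. Figures used matplotlib 3.10.9 in Python 3.11.15.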

Additional observations from a re-analysis of the deposited data

Results flagged for a closer look

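Trim30a and the RNA editor Adar had probe sets whose Artemis-deficient samples did not overlap the control samples, in opposite directions in lines and marrow. These samples lay below all RAG-2-deficient samples in the lines and above all RAG-1-deficient samples in the bone marrow. Trim30a 1417961_a_at differed by -0.94 between the Artemis-deficient and RAG-2-deficient lines and by 1.13 between the Artemis-deficient and RAG-1-deficient marrow cells. For Trim30a 1451860_a_at the values were -0.414 and 1.06, and for Adar 1434268_at they were -0.261 and 0.372. Of these 6 differences, that of Trim30a 1417961_a_at in the marrow was called by limma. Over all probe sets, the groups did not overlap in 9.55% that were lower in the lines and in 23.5% that were higher in the marrow. The share of all probe sets with both was not computed. The difference between lines and marrow was not tested, and the controls are not the same genotype.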

How the results depend on the processing

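No called difference changed sign under any alternative run. Counts of calls were compared by size only, and leaving out Artemis-deficient replicate 2 gave marrow calls in both directions. Among uncalled marrow differences, leaving out Artemis-deficient replicate 1 turned Oas3 from -0.56 to 0.86, Oas2 from -0.50 to 0.33, Rsad2 1436058_at from -0.46 to 0.46 and Xaf1 1443698_at from -0.59 to 0.23. Leaving out replicate 2 turned others the opposite way, among them Oas1a from 0.41 to -0.26, Rtp4 from 0.22 to -0.34 and Eif2ak2 1422005_at from 0.22 to -0.35. Of the 48 differences, 39 were above 0 with both replicates, 46 without replicate 1 and 29 without replicate 2. The Artemis-deficient against RAG-2-deficient lines had 2 called interferon response probe sets, and 1 with eBayes without a trend, without the IkB-DN group, with only the 2 groups in the fit, with a pseudocount of 1 or with the stricter filter; leaving out single samples gave 1 to 2. Against wild type lines the count of 1 became 0 without the IkB-DN group or with only the 2 groups (9 and 7 at an unadjusted p below 0.05), and 0 to 1 on leaving out samples. Against the IkB-DN lines it became 0 with no filter or the stricter one (13 and 5 unadjusted), and 0 to 1 on leaving out samples; with only the 2 groups the 1 call was Cmpk2, not Eif2ak2 (limma adjusted p = 0.0518). The Artemis- and ATM-deficient lines had 2 in place of 1 against RAG-2-deficient lines, and 2 and 1 in place of 0 against IkB-DN lines, with only the 2 groups and with a median pseudocount. In the marrow, 3 became 1 without a trend (Mx1), and 0 to 15 on leaving out samples; the 0, without RAG-1-deficient replicate 1, had 10 at an unadjusted p below 0.05, and then 0 of all probe sets were called. The median marrow difference ran from 0.252 to 0.769 on leaving out samples. The other 3 line comparisons kept their counts within 1.5 times. Over all probe sets, the Artemis-deficient against RAG-2-deficient count moved from 248 to 81 without the IkB-DN group. The causes were not tested. For the unadjusted counts in this section, shares over all probe sets are available for the main fits. Those shares were 12.4% for Artemis-deficient against wild type lines, 18.8% against IkB-DN lines and 16.9% in the marrow. Dim signal, with 23 of 55 probe sets below the filter in the lines, and 2 samples a group in the marrow limit these results. No paired analysis was possible because the replicate numbers only name samples.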
